A study of Zea mays with 6 samples.

Results

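The 61 transcripts described here, called the dominant nuclear transcripts of control leaves, were among the most abundant by FPKM in leaves of control maize. They stood at a far lower level in leaves of transgenic maize. They were taken from 33702 nuclear IDs among 33953 features by a rule on the deposited values. A transcript had to reach an FPKM (fragments scaled by feature length and by the mapped fragments of the library) of at least 1000 in each of the 3 control libraries. Its mean control FPKM plus 1 had to be at least 4 times its mean transgenic FPKM plus 1, and its transgenic mean had to exceed 0.1. The rule also sets 6 IDs aside by name, and 0 of these would have met it. The members were thus chosen by their FPKM in all 6 libraries, and their levels and the difference between the genotypes are given as a description with no test.

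Both groups were seedlings of the inbred line KN5585 that stopped being watered at the 3-leaf stage, and leaf RNA was sequenced on day 5 of drought, when soil water had dropped to 9.8%. The control group has the genotype given as control and the other group the genotype given as transgenic, with 3 libraries each. The transgenic plants carried a construct for the synthesis of poly-γ-glutamic acid, which some bacteria make as a chain of glutamate units. The transgenes, their promoter, the number of independent lines and whether a library came from 1 plant or a pool are not stated in the labels, so the spread between libraries may be technical. Watered plants were not analysed here, so every value below is a level under drought.

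In a maize leaf, a small number of nuclear genes usually provides a large part of the messenger RNA. Among them are genes of the light-harvesting antenna, of the small subunit of Rubisco and of the C4 cycle, the carbon pump that passes fixed carbon from mesophyll to bundle sheath cells. Drought is known to lower many transcripts of photosynthesis and to raise those of protective proteins such as dehydrins and of enzymes that make osmolytes. FPKM is a relative measure, so a few very abundant transcripts lower the FPKM of all others in the same library. The product of a member cannot be given here, because 0 of the 61 IDs had a match in the reference gene table, and members are therefore identified by ID and by level.

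The 61 members together took up a much smaller part of the library in transgenic than in control leaves. They made up 20.1%, 20.7% and 20.9% of summed FPKM in control replicates 1, 2 and 3, and 1.26%, 1.28% and 1.31% in transgenic replicates 1, 2 and 3. The mean share was 20.6 ± 0.402% in control and 1.28 ± 0.0281% in transgenic libraries (SD, n = 3 per group). The median over the 61 members was 1828, 1876 and 1899 FPKM in the control libraries and 160.2, 164.1 and 170.3 FPKM in the transgenic libraries. Each median was taken within its library, so these are not the values of a single member. In RNA of whole leaves, fewer cells of a type and less RNA per cell cannot be told apart, and a lower FPKM can be either.

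**Figure D1:**
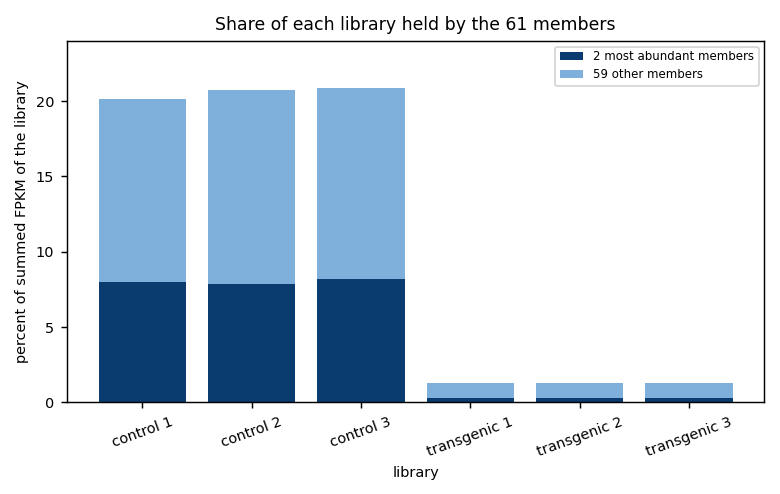
Bars show the percentage of the summed FPKM of each library (y axis) that the 61 members held, for 3 control and 3 transgenic libraries (x axis), with the 2 most abundant members dark and the other 59 light. The bars reach 20.1 to 20.9% in control and 1.26 to 1.31% in transgenic libraries.

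The name of the group holds for most of the top of the control list but not for all of it. Of the 10 most abundant features of control leaves 6 were members, of the 50 most abundant 34 and of the 100 most abundant 57. The members took places 1 to 108 in the control order. In transgenic leaves 0 members were among the 50 most abundant features and 1 was among the 100 most abundant. Their places there ran from 83 to 14691, with a median of 991.

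Across all features, summed FPKM lay between 1208094 and 1238707 per library, and the absolute depth is unknown because the files hold no read counts. The whole library differed between the genotypes too. Of 22200 features whose mean FPKM reached 1, transgenic leaves were higher for 5996 and lower for 10199 (limma on log2(FPKM + 1), Benjamini-Hochberg adjusted, threshold 0.05). Lower calls were 63.0% of all calls on the deposited scale, 48.5% under median-of-ratios scaling and 72.5% when libraries were scaled to the sum of all features other than the members. Nuclear marker genes of leaf cell types could not be looked up. Of 13 plastid-encoded leaf genes on the marker list 10 were matched by symbol. All of these 10 were above 0 in every control library and 9 in every transgenic library, the exception being atpB, which was listed at 0 in 1 of them. Their summed FPKM was 778 to 852 in control and 1735 to 1940 in transgenic libraries. Of the 10, 5 were higher in every transgenic than in any control library (psaA, psaB, petA, ndhC and ndhK), 4 were lower (psbA, psbB, psbC and petB) and atpB overlapped. The sum rested mostly on ndhC, with 261 to 291 FPKM in control and 888 to 994 FPKM in transgenic libraries, and ndhK, with 295 to 328 and 781 to 899 FPKM, both of the plastid NDH complex. Of those lower, psbA, which encodes the D1 protein of photosystem II, had 153 to 166 FPKM in control and 0.41 to 1.85 FPKM in transgenic libraries. Some of the 10 were low throughout, such as psbB (2.8 to 4.2 and 1.05 to 2.05 FPKM) and psaB (0.8 to 1.33 and 4.73 to 6.84 FPKM). The libraries were made with an mRNA-Seq kit, and how well it captured plastid transcripts is not known here. The marker values are therefore not read as levels of plastid transcripts in the leaf. The part of such differences between the libraries in the levels of the members was not tested.

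The most abundant member in control leaves was Zm00001d037894. It had 59134, 60847 and 64014 FPKM in the control libraries and 1314, 1422 and 1509 FPKM in the transgenic libraries. It alone provided 5.03% of control FPKM, and its control level was 1.69 times that of the second member. Its log2 difference, taken as transgenic less control and on the log2(FPKM + 1) scale like all log2 differences here, was -5.44 (SE 0.05).

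The second member, Zm00001d012561, had 37020, 35428 and 36139 FPKM in control and 1955, 2069 and 1891 FPKM in transgenic libraries. Its share of control FPKM was 2.97%, and it stood 3.57 times above the third member. The log2 difference was -4.20 (SE 0.04). In transgenic leaves the order of these first 2 members was turned round, and the groups of 3 libraries did not overlap in either genotype. They were the only 2 members at or above 1000 FPKM in each transgenic library. Together they provided 38.9% of the FPKM of all members in control leaves and 21.4% in transgenic leaves.

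The next members in the control order had higher transgenic levels than most members. The third, Zm00001d011080, had 9210, 10851 and 10313 FPKM in control and 836, 827 and 921 FPKM in transgenic libraries, a ratio of 11.7. The fourth, Zm00001d019163, had 8745, 9482 and 8758 FPKM in control and 718, 740 and 850 FPKM in transgenic libraries, also a ratio of 11.7. These 2 had the highest transgenic levels after the first 2 members.

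The fifth and the sixth member started from nearly the same control level and reached much lower transgenic values. Zm00001d043121 had 8505, 9178 and 9168 FPKM in control and 37.1, 40.7 and 38.8 FPKM in transgenic libraries. Its log2 difference was -7.81 (SE 0.05) and its ratio 225. Zm00001d038870 had 8062, 8477 and 8747 FPKM in control and 59.5, 63.1 and 66.1 FPKM in transgenic libraries, with a ratio of 132. The control values of the fourth, the fifth and the sixth member overlapped one another, so their order in control leaves is not settled by 3 libraries. In transgenic leaves the fourth lay above both others, and the sixth above the fifth, in every library. Of the 60 pairs of neighbours in the control order, 11 did not overlap in the 3 control libraries, among them the first 2 pairs.

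**Figure D2:**
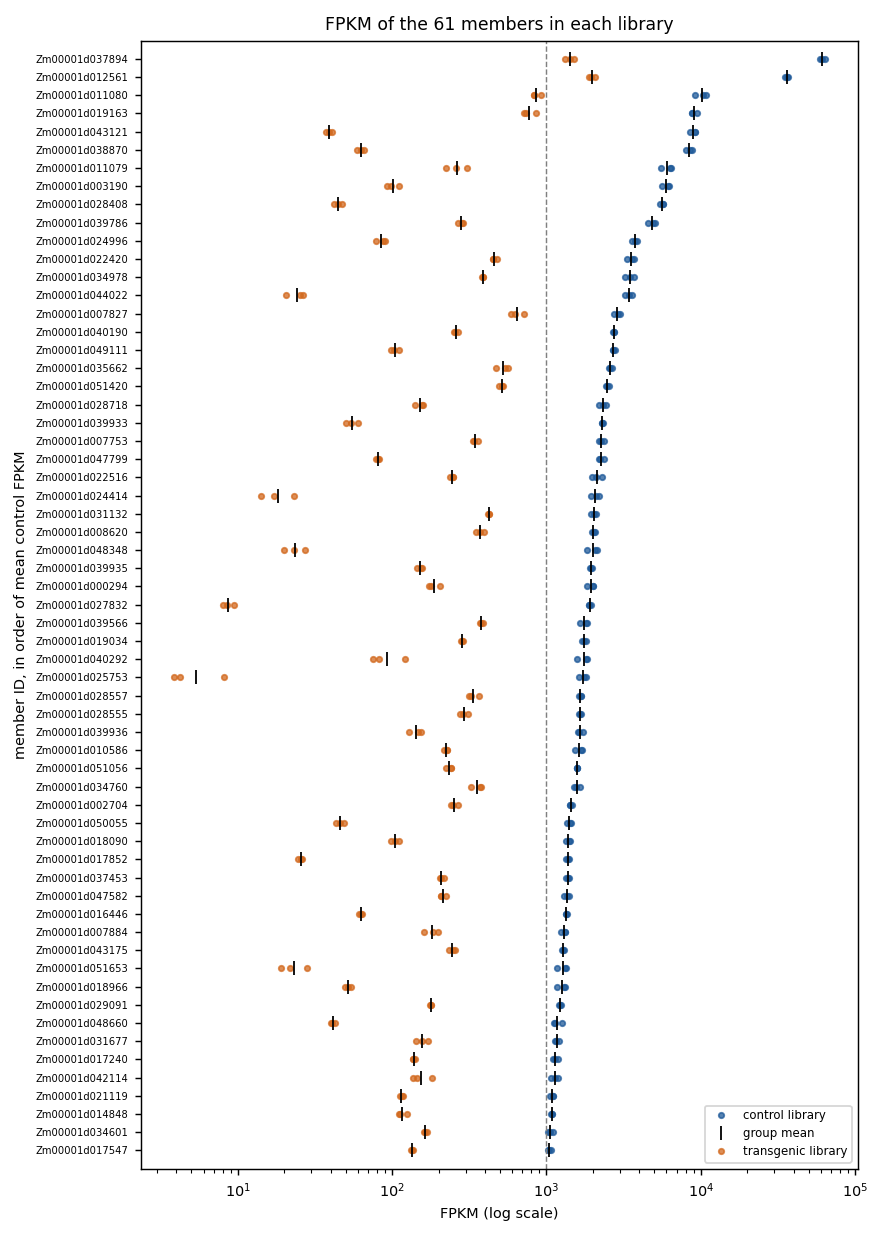
Each row is 1 of the 61 members in order of mean control FPKM, with the FPKM of 3 control and 3 transgenic libraries as points on a log axis and group means as ticks; the dashed line marks 1000 FPKM. Control points run from 1020 to 64014 FPKM, transgenic points of the same rows from 3.83 to 2069 FPKM, and the 2 groups overlap in 0 rows.

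The deepest difference belonged to a member of middling control level. Zm00001d025753 had 1630, 1797 and 1760 FPKM in control and 4.20, 3.83 and 8.11 FPKM in transgenic libraries. Its ratio was 271 and its log2 difference -8.14, and its SE of 0.21 was the largest of all members. Transgenic replicate 3 stood well above the other two at 8.11 FPKM, which gave this member the highest coefficient of variation of the transgenic group, 44.1%. The other member under 10 FPKM was Zm00001d027832, with 1958, 1876 and 1899 FPKM in control and 8.53, 8.01 and 9.51 FPKM in transgenic libraries.

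Further members with ratios above 100 came from higher control levels. Zm00001d044022 had 3241, 3581 and 3446 FPKM in control and 20.5, 26.3 and 25.3 FPKM in transgenic libraries, a ratio of 137. Zm00001d028408 had 5413, 5693 and 5689 FPKM in control and 42.3, 44.5 and 47.1 FPKM in transgenic libraries, a ratio of 123. In both, the lowest control library stood more than 100 times above the highest transgenic library.

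At the other end, 24 of the 61 members had ratios from 4 to below 8. Their control means lay between 1046 and 3533 FPKM and their transgenic means between 134.6 and 642 FPKM. The lowest ratio, 4.41, was that of Zm00001d034760, with 1520, 1649 and 1561 FPKM in control and 375, 373 and 323 FPKM in transgenic libraries. Zm00001d007827 followed with a ratio of 4.48, having 2744, 2978 and 2921 FPKM in control and 587, 626 and 714 FPKM in transgenic libraries. In this member the lowest control library was 3.84 times the highest transgenic library, the narrowest gap of all members. Zm00001d039566, with a ratio of 4.64, had a control mean of 1762 ± 101 FPKM and a transgenic mean of 379 ± 6.64 FPKM. Zm00001d031132, with a ratio of 4.77, had a control mean of 2021 ± 69.0 FPKM and a transgenic mean of 423 ± 3.12 FPKM (SD, n = 3).

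The other members lay between these ends. A ratio from 8 to below 16 was found for 13 members, from 16 to below 32 for 10, from 32 to below 64 for 6 and of 64 or more for 8. The median ratio was 10.6 and the middle 50% of members lay between 6.58 and 27.9. Of the control FPKM of a library, the 24 members of the lowest class held 3.43%, and the 8 members of the highest class 2.80%. In transgenic leaves those shares were 0.590% and 0.0184%. The class from 32 to below 64 held 6.23% in control, most of it from Zm00001d037894.

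The median log2 difference of the 61 members was -3.40, and the range was from -8.14 to -2.14. The median of all 22200 tested features was -0.31, so the members lay 3.09 below it at their median. All 61 members were lower in transgenic leaves by limma, where 45.9% of all tested features were called lower. The lowest control library exceeded the highest transgenic library in 61 of 61 members, a state found in 47.3% of all tested features. Of all tested features 8.18% met the ratio of 4. As the rule used these same values, the counts over the members could hardly be otherwise and nothing is read from them.

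The transgenic level of a member was only loosely ordered by its control level. Across the 61 members, Spearman's rho between the mean control and the mean transgenic FPKM was 0.30, and across the 48 other nuclear IDs that reached 1000 FPKM in each control library it was 0.58. Between mean control FPKM and the ratio rho was 0.31 among the members. Between mean transgenic FPKM and the ratio it was -0.73, where the ratio contains the same transgenic values. These coefficients describe transcripts that share the same 6 libraries, and the ratio threshold cuts both sets. By residual level, 2 members had a transgenic mean under 10 FPKM, 16 lay from 10 to below 100, 41 from 100 to below 1000 and 2 at 1000 or above.

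The members were 56.0% of the 109 nuclear IDs with at least 1000 FPKM in each control library. Of the 48 others, 27 were lower in transgenic leaves by a ratio from 2 to below 4, 15 lay within 2-fold, 3 were higher by 2 to below 4 times and 3 by 4 times or more. Their median log2 difference was -1.20. They held 10.7 ± 0.222% of FPKM in control and 8.92 ± 0.199% in transgenic libraries (SD, n = 3 per group). The rule itself separates these IDs from the members by the ratio, so a smaller step of their share than that of the members is fixed by the choice. The size of the step also rested on the 3 IDs that were higher by 4 times or more. Without these, the share of the other 45 was 10.3 ± 0.208% in control and 5.83 ± 0.0951% in transgenic libraries. By control mean, members were 33 of 68 such IDs under 2000 FPKM, 19 of 26 from 2000 to below 5000 and 9 of 15 at 5000 or above. Below the level of the members the ratio of 4 was met less often. It was met by 23.3% of 1821 nuclear IDs with a control mean from 100 to below 1000 FPKM, by 9.65% of 10579 from 10 to below 100 and by 3.20% of 9102 from 1 to below 10. These classes were formed on the same control values that enter the ratio, and low values have less room for a ratio of 4 after 1 is added, so the order of these shares is a description.

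**Figure D3:**
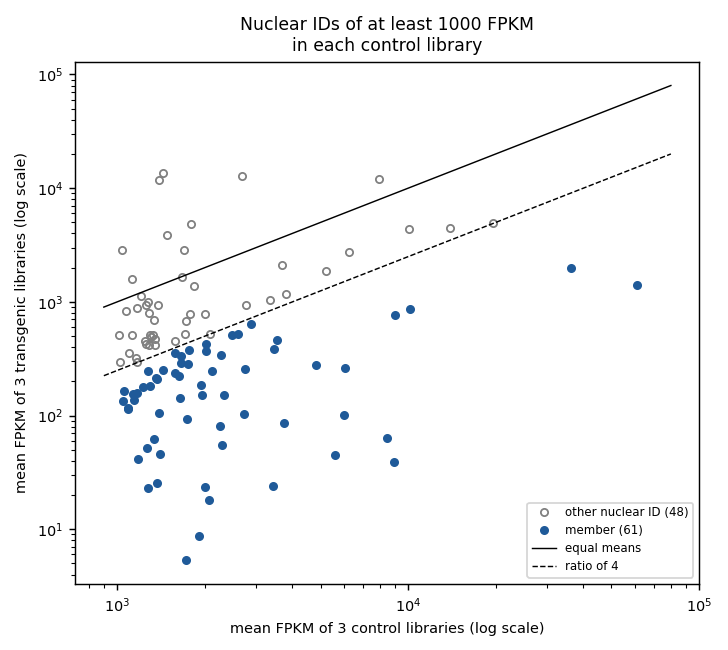
Each point is 1 of the 109 nuclear IDs with at least 1000 FPKM in each control library, by mean FPKM in 3 control (x axis) and 3 transgenic libraries (y axis), both on log axes; filled points are the 61 members and open points the 48 others, the solid line marks equal means and the dashed line the ratio of 4. Members spread from just under the dashed line, at a ratio of 4.41, down to a ratio of 271.

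None of the 109 abundant IDs had a ratio between 3.96 and 4.41. Just outside the ratio of 4 lay Zm00001d019312 with a ratio of 3.96, Zm00001d027756 with 3.95 and Zm00001d048611 with 3.94. Of these, Zm00001d048611 was the third most abundant feature of control leaves. It had 18525, 20351 and 19750 FPKM in control and 4544, 4875 and 5454 FPKM in transgenic libraries, and it provided 1.60% of control FPKM, so its absence lowers the share given for the members. At the control minimum, the lowest members were Zm00001d034601, whose control libraries started at 1020 FPKM, and Zm00001d017547, which started at 1027 FPKM. Just under it were Zm00001d013568, with 996 FPKM in control replicate 1 and a ratio of 6.11, Zm00001d034497, with 995 FPKM there and a ratio of 4.63, and Zm00001d045478, with 953 FPKM there and a ratio of 6.98.

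The spread between libraries of a genotype was not used by the rule, except that the lowest control library had to reach 1000 FPKM. The coefficient of variation of a member over the 3 control libraries lay between 0.152% and 8.26%, with a median of 3.63%, and the 48 other abundant IDs had a median of 2.86%. Over the transgenic libraries it lay between 0.683% and 44.1% with a median of 5.52% for the members, and the median of the 48 others was 4.72%. The highest value among control libraries was that of Zm00001d011080. After quantile normalization the order of the control medians turned round, to 2.95% for the members and 4.01% for the others, so no difference in spread between the sets is read from them.

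Most members were lowest in the same control library. Control replicate 1 was the lowest of the 3 for 50 of 61 members, control replicate 2 for 7 and control replicate 3 for 4. The median member lay 3.53% under its control mean in replicate 1, 1.69% over it in replicate 2 and 1.62% over it in replicate 3. Among the 48 other abundant IDs control replicate 1 was the lowest for 26. Control replicate 1 also had the lowest summed FPKM of all libraries. The count depended on the scaling. Control replicate 1 was the lowest for 43 of 61 members when every library was scaled to a total of 1000000 and for 34 after quantile normalization. It was the lowest for 47 when libraries were scaled to the sum of other features and for 56 under median-of-ratios scaling. In the transgenic group, replicate 3 was the highest for 35 of 61 members, with the median member 2.80% over its mean there, and it was the highest for 21 of the 48 others. Members within a library are not independent, so these counts carry no test.

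**Figure D4:**
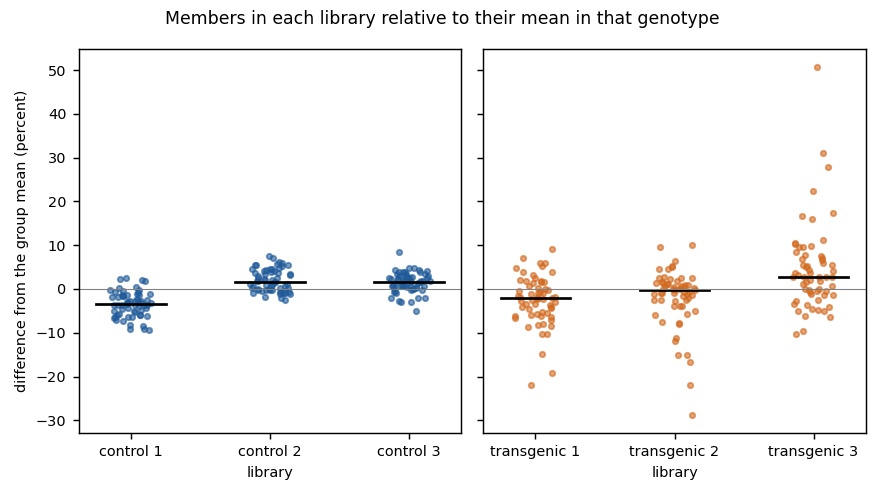
Each point is a member's FPKM in 1 library as the percent difference from its mean over the 3 libraries of that genotype (y axis), for control libraries on the left and transgenic libraries on the right, with the median as a bar. The median bars lie at -3.53, 1.69 and 1.62% in control and at -2.15, -0.31 and 2.80% in transgenic replicates 1, 2 and 3.

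Values that the rule did not use exist only when a library is left out. The rule was applied to 5 libraries and the sixth was read for the members so chosen. The ratio there was taken against the mean of the other genotype, whose 3 libraries had taken part in the choice. Without control replicate 1, 65 members were chosen, and 63 of them reached 1000 FPKM and 63 the ratio of 4 in control replicate 1 itself, where the median ratio was 9.36. Without control replicate 2 or 3 the same 61 members were chosen, and all 61 met both thresholds in the library left out, with median ratios of 10.8 and 10.6. Being the members of the full rule, these 61 had to reach 1000 FPKM there, so only the ratio could have failed. Without transgenic replicate 1 or 3, 62 members were chosen and 61 met the ratio in the library left out. Without transgenic replicate 2 the same 61 were chosen and all 61 met it. None of the 61 members was lost in any of these 6 choices. For the level this was certain, as each member had reached 1000 FPKM in all 3 control libraries. For the ratio a loss was unlikely, as the lowest ratio over all 6 libraries was 4.41, so nothing is read from it. The lowest ratio seen in a library left out was 3.58, in transgenic replicate 3. It was that of Zm00001d048611, which was chosen without this library but is not among the 61 members.

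The numbers in the IDs were not used by the rule. Of the 61 members 7, or 11.5%, had an ID number within 5 of that of another member, and of the 48 other abundant IDs 2, or 4.17%, had one within 5 of another of these 48. The sets differ in size, which alone changes such a share, and the number expected by chance was not computed, so no difference is read from these counts. The 7 members, named here for their numbers, formed 3 runs. Zm00001d011079 and Zm00001d011080 had control means of 6090 ± 489 and 10125 ± 837 FPKM and ratios of 23.1 and 11.7. Zm00001d028555 and Zm00001d028557 had almost the same control mean, 1658 ± 28.5 and 1659 ± 18.6 FPKM, and transgenic means of 292 ± 19.2 and 335 ± 29.4 FPKM. Zm00001d028556, numbered between them, stood at 7.99 ± 1.03 FPKM in control and 4.41 ± 0.717 FPKM in transgenic leaves (SD, n = 3 per group).

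The third run differed within itself. Zm00001d039933 had 2292, 2288 and 2313 FPKM in control and 54.0, 50.6 and 60.3 FPKM in transgenic libraries, a ratio of 41.1. Zm00001d039935 had 1916, 1956 and 1983 FPKM in control and 145.3, 155.8 and 154.9 FPKM in transgenic libraries, a ratio of 12.8. Zm00001d039936 had 1605, 1726 and 1616 FPKM in control and 128.6, 146.9 and 154.7 FPKM in transgenic libraries, a ratio of 11.4. The transgenic values of the first lay under those of the other members of the run in every library, while the other two overlapped. Zm00001d039934 was listed at 0 in all 6 libraries. Positions and sequences of these IDs are not given here. Where such IDs are near-identical copies, the counting can split reads between them, so the level of a single copy is uncertain.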

How the data were processed

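RNA was sequenced from leaves of 3 control and 3 transgenic libraries, from 1.3 µg RNA per library and a SMARTER mRNA-Seq kit, per the labels' protocols. The authors deposited FPKM values, 1 file per library, rounded to 2 decimals, per the file headers and the values themselves. No label or header names the aligner, counter, annotation or strand setting. Of builds, the submitters' processing notes list GRCm38 and mm10, mouse builds that do not match the maize IDs, so no build is taken as known. In the reference gene table of the B73 assembly 0 of 33702 nuclear and 251 of 251 organelle IDs matched.

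The members and lists were chosen with earlier results of these data known. The rule was applied to FPKM as deposited. The genotypes were compared with limma 3.58.1 in R 4.3.3 (lmFit, eBayes with trend) on log2(FPKM + 1), two-sided, Benjamini-Hochberg adjusted over 22200 features whose mean FPKM reached 1; the fit was tested on simulated data. Fold changes on this scale understate those of low features. Counts of reads being absent, no counting error is given. Transcripts named are the 6 members with the highest control mean, the 6 with the highest and the 4 with the lowest ratio, the 4 with the highest transgenic mean, the 2 lowest at the control minimum, the most variable in each group, and 3 IDs just outside each threshold. Alternatives covered scaling, pseudocount, filter, variance model, replicate block, left-out libraries and thresholds of the rule.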

Additional observations from a re-analysis of the deposited data

How the results depend on the processing

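All 61 members were lower in transgenic leaves under each alternative fit, which their choice by a ratio of 4 in these libraries made nearly certain and which says nothing of stability. The median log2 difference of the members was -3.01 with median-of-ratios scaling (median of all tested features 0.04), -3.79 after quantile normalization (-0.08) and -3.73 when scaled to the sum of other features (-0.60), an alternative chosen after seeing the data. Without 1 library it lay between -3.45 and -3.38. The rule found 45 members with median-of-ratios scaling, 50 with a total of 1000000 per library, and 82 with quantile normalization or scaled to other features. It found 119 at a control minimum of 500, 23 at 2000, 88 at a ratio of 2, 37 at a ratio of 8, 63 with a minimum on the control mean, and 61 to 65 without 1 library. The share in control and transgenic libraries was 18.5% and 0.924% for the members found with median-of-ratios scaling, 26.0% and 2.44% after quantile normalization, and 19.5% and 1.18% with a total of 1000000. Without 1 library the control share ran from 20.4% to 22.8% and the transgenic share from 1.28% to 1.76%. The 2 highest values of each were those without control replicate 1 and without transgenic replicate 3, where Zm00001d048611 was among the members. Over all features, a change of 2-fold or more left 3806 higher and 5712 lower, since fewer can pass, and with 1 library fewer the higher ones numbered 5358 to 5988 and the lower ones 9593 to 9998. The replicate block gave 5935 higher and 10087 lower. Same-numbered libraries deviated from their group means with correlations of 0.006, -0.001 and 0.015, and 3 of 6 libraries correlated best with their own number. The libraries were therefore not treated as paired. The absolute depth is unknown, which leaves the counting error of members under 10 FPKM unknown.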

Other observations

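A set of the opposite kind stood across from the members. Of 144 nuclear IDs with at least 1000 FPKM in each transgenic library, 119 were 4 times or more above control. These 119 held 2.06 ± 0.0427% of FPKM in control and 34.5 ± 0.653% in transgenic libraries (SD, n = 3 per group). Only 22 nuclear IDs reached 1000 FPKM in each of the 6 libraries, and 2 of them were members. Summed FPKM of the members was lower by 235194 in transgenic leaves, and that of the 119 was higher by 399875. The 45 abundant control IDs in neither set went from 10.3 ± 0.208% to 5.83 ± 0.0951%, and all 33728 remaining features went from 67.1 ± 0.570% to 58.4 ± 0.768%. Both sets were picked from the contrast they describe, and FPKM sums to a similar total in each library, so that the shares are bound to one another.

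The 6 IDs that the rule sets aside were all higher in transgenic leaves. Zm00001d038163 was the most abundant feature there, with 324 ± 29.2 FPKM in control and 13942 ± 600 FPKM in transgenic libraries. The lowest log2 difference of the 6 was 2.30, for Zm00001d000316, and the highest was that of Zm00001d046170, which had 59.6, 36.6 and 41.7 FPKM in the control and 5975, 5853 and 5893 FPKM in the transgenic libraries.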
